A study of Rattus norvegicus with 14 samples.

Results

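Adenylate cyclases make cyclic AMP (cAMP) and phosphodiesterases break it down, and 10 genes of these families were followed here in the dentate gyrus of rats after a learning session. They are the cyclases Adcy2, Adcy3, Adcy5 and Adcy8 and the phosphodiesterases Pde1a, Pde1b, Pde2a, Pde4b, Pde4d and Pde10a. Every probe set whose single symbol in the platform annotation was one of these names was taken, for 10 of 10411 named genes, which gave 14 of the 15866 probe sets other than controls: 5 for the 4 cyclases and 9 for the 6 phosphodiesterases. Adcy5, Pde4b, Pde4d and Pde10a had more than one probe set.

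The samples were microdissected dentate gyrus of 14 young male Long-Evans rats, 3 to 4 months old, with 7 rats per group and 1 RAE230A array per rat. All rats had earlier spatial training in a water maze, and 2 to 3 weeks later each had 1 session of 8 trials at 8 min intervals in a new pool. Learning rats trained with orienting cues and a visible platform that stayed in place, while for control rats the visible platform moved between trials and the surroundings lacked useful cues. Both groups had a 90 s probe swim 1 h after the last trial and tissue was taken straight afterwards, so both had swum. The comparison is of sessions that differed in cues and in whether the platform moved. No measure of swimming is given here. The labels name no transgene or drug. The medians of the arrays spanned 5.09 to 5.12 in log2 units, and any pair of arrays correlated at 0.995 to 0.998 across probe sets. Prox1, the defining transcription factor of granule cells, averaged 10.30.

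As background, cyclases turn ATP into cAMP when receptors act through the stimulatory G protein, and some, such as Adcy8, also respond to calcium and calmodulin. cAMP acts on protein kinase A, the Epac exchange factors and cyclic nucleotide-gated channels, and in hippocampal neurons this path is known for its part in lasting synaptic plasticity. Phosphodiesterases end the signal: the PDE4 enzymes are specific for cAMP, whereas PDE1, PDE2 and PDE10 enzymes also cleave cyclic GMP.

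Pde10a had the largest difference of the 10 genes and Pde2a the largest among the other genes that could be tested. The windows around their annotated start sites, from 250 bases before to 50 after, are therefore shown first. Sequences are from RefSeq in the rat assembly GRCr8, 5′ to 3′ on the gene's strand. Capitals mark TGACG on either strand, the core of the cAMP response element, and GCGNGGGCG on either strand, a form of the Egr1 site. The first Pde10a window is chr1:54765619-54765918, the second chr1:54501157-54501456, both on the minus strand. The Pde2a windows are chr1:165235373-165235672 and chr1:165265759-165266058, both on the plus strand.
Pde10a first start: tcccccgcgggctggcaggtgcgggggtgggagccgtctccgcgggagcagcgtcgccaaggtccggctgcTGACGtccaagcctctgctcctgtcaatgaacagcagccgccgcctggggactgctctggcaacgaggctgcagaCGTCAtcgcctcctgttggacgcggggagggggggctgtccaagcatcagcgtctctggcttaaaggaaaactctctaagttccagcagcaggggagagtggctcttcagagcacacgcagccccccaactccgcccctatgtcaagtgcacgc
Pde10a second start: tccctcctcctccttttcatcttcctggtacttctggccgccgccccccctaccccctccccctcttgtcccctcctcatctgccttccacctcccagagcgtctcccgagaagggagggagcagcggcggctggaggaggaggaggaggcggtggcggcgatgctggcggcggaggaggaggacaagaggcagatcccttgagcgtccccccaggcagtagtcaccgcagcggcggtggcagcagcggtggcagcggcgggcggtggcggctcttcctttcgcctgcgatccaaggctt
Pde2a first start: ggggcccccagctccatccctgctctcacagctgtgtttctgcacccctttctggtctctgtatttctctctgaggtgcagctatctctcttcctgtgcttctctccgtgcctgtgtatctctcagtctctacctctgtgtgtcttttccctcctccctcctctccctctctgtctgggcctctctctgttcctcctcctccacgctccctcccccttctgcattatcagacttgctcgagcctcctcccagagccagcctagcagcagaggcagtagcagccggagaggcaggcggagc
Pde2a second start: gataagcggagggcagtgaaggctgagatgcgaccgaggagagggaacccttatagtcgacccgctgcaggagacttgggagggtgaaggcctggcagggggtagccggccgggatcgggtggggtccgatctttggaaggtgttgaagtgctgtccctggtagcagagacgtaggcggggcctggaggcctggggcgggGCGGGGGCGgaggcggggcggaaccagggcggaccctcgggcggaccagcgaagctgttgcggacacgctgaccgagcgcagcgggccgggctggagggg

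The first Pde10a window held TGACG once on each strand, at positions -179 and -104 from the start site, and its GC content was 65.7%. Its second window held neither motif, and the second Pde2a window held 1 match to GCGNGGGCG, at position -50. Of 33469 windows of this length in the whole table, 21.2% held TGACG and 4.98% held GCGNGGGCG on either strand. Matches to TGACG are thus common, and those to GCGNGGGCG less so. The full palindrome TGACGTCA, which contains TGACG, was in 1.83% of all windows and in 0 of the 14 windows found for 7 of the 10 genes. TGACG was in 3 of those 14 windows and GCGNGGGCG in 3. The windows with GCGNGGGCG had GC contents of 62.3 to 70.7%, beside a median of 51.7% over all windows. The arrays do not tell which start site a probe set's transcripts used.

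Pde10a, a dual phosphodiesterase best known from striatal projection neurons, stood higher in learning rats on both of its probe sets. On 1368438_at the control rats had a lowest value of 9.81, a median of 9.91 and a highest of 10.30 on the log2 scale, and the learning rats 10.10, 10.31 and 10.64. All 7 learning rats lay above the control median and 4 lay above every control rat, but control replicates 3, 6 and 7, at 10.10, 10.30 and 10.25, lay within the learning range. The means were 10.01 ± 0.20 in control and 10.34 ± 0.20 in learning rats (SD, n = 7 each). Learning minus control was 0.33 ± 0.10 log2 units (SE), or 1.26-fold, with a 95% interval from 0.11 to 0.55. Limma's unadjusted p was 0.00549 and its adjusted p over all tested probe sets 0.233, so this difference did not pass the threshold of 0.05. A two-sided exact permutation test of this single probe set gave p = 0.0134. In size of difference it was number 308 of the 9387 probe sets tested.

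The second Pde10a probe set, 1370669_a_at, had a lowest value of 8.28, a median of 8.48 and a highest of 8.79 in control rats, against 8.34, 8.73 and 9.10 in learning rats. The groups overlapped more here, with 3 learning rats above every control and learning replicate 4 near the bottom of the control range. The difference was 0.24 ± 0.11 log2 units (SE), with an interval from 0.0005 to 0.49, and limma gave p = 0.0496 unadjusted and 0.381 adjusted; the exact permutation p was 0.0746. After removal of the group means the probe sets varied together across the 14 rats, with Pearson's r of 0.783 (permutation p = 0.0011, adjusted 0.0044 over 4 pairs of probe sets of the same gene). Spearman's rho was 0.820 (permutation p = 0.00041, adjusted 0.00164), r was 0.948 within control and 0.653 within learning rats, and r was 0.651 without control replicate 6 and learning replicate 2, the rats farthest from the median.

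**Figure D1:**
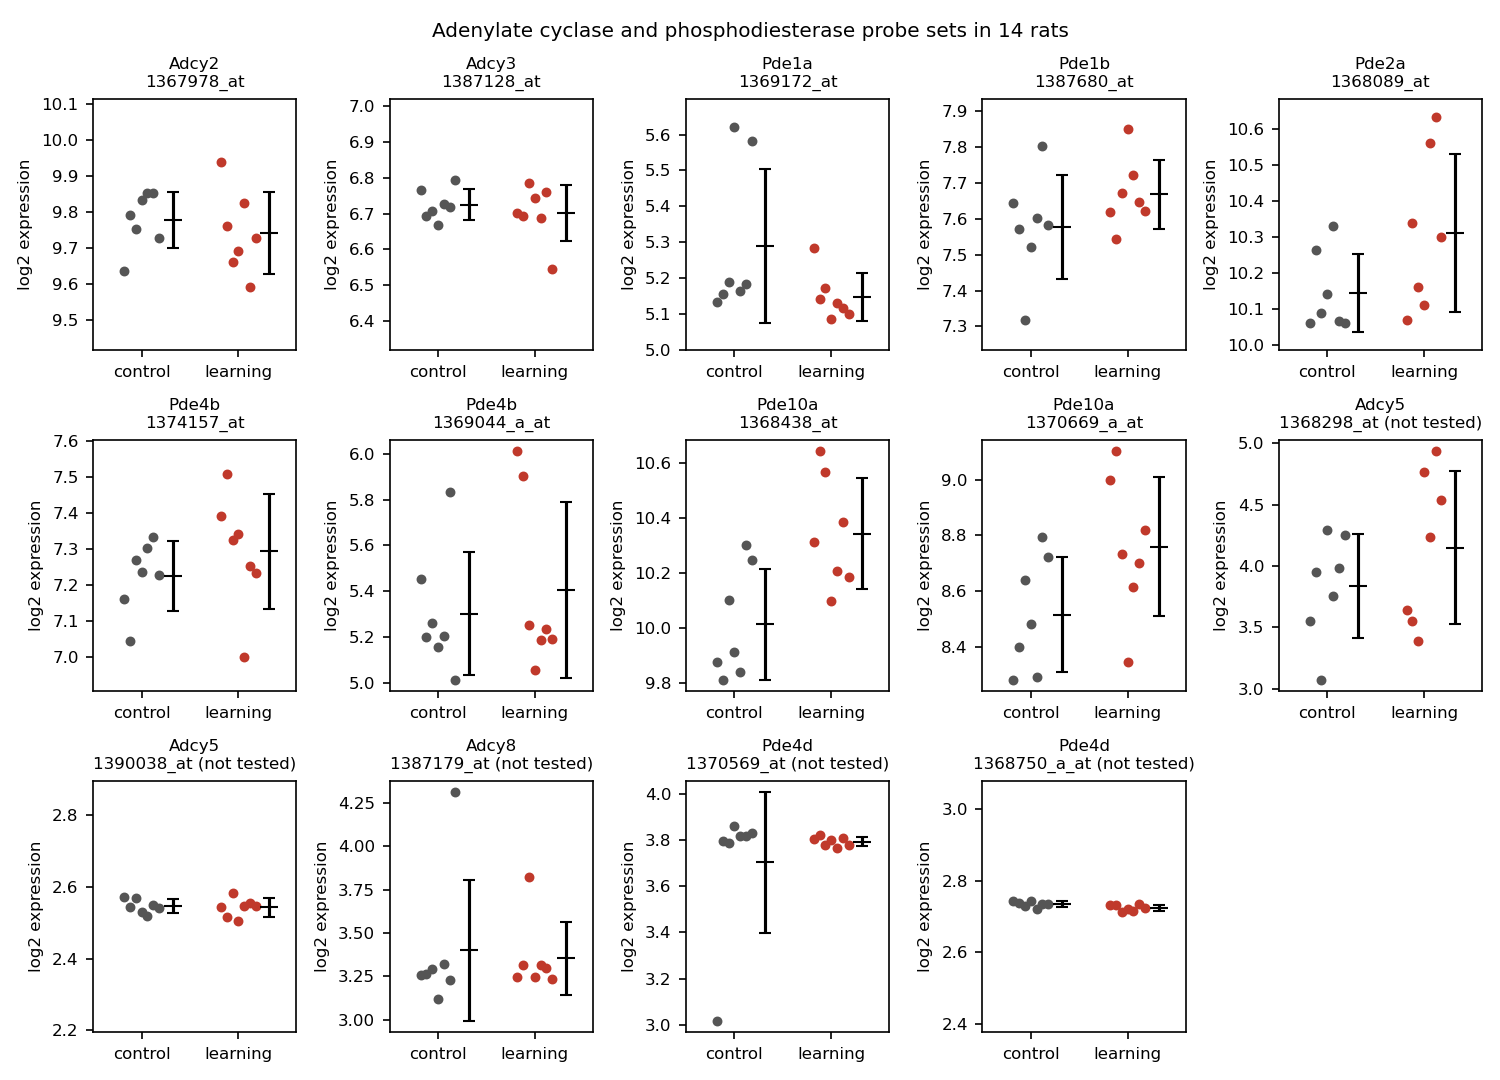
Log2 expression of the 14 probe sets of the 10 genes in each rat (points, control grey and learning red, in replicate order), with the group mean and SD beside the points. Each panel has its own axis, and "not tested" marks the 5 probe sets whose mean over all arrays was below 4. On Pde10a 1368438_at 4 learning rats lie above every control rat, while on both Adcy2 and Adcy3 the groups lie over one another.

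The mean of the granule cell markers moved with Pde10a. In the 5 of 7 listed markers that were tested (Prox1, Dsp, Calb1, Rasgrf2 and Stxbp6) the mean log2 level was 9.12 to 9.37 in control rats and 9.32 to 9.45 in learning rats; Tdo2 and Pdzd2 were below the filter. Dsp, which encodes desmoplakin, differed by 0.44, Stxbp6 by 0.22, Rasgrf2 by 0.21, Prox1 by 0.08 and the calcium-binding protein gene Calb1 by -0.03. Within groups, Pde10a 1368438_at followed this mean with r = 0.778 (permutation p = 0.00083, adjusted 0.00747 over 9 member probe sets) and rho = 0.798 (permutation p = 0.00108, adjusted 0.00972). The value was 0.919 in control and 0.623 in learning rats, and 0.746 without control replicates 1 and 6. For 1370669_a_at r was 0.651 (permutation p = 0.0106, adjusted 0.0477), with rho = 0.763 (permutation p = 0.0024, adjusted 0.0108). It was 0.961 within control rats but 0.297 within learning rats, and 0.525 without control replicates 1 and 6.

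With the granule marker mean as a covariate the Pde10a difference turned sign on both probe sets. Learning minus control became -0.075 ± 0.12 (SE) on 1368438_at and -0.14 ± 0.16 (SE) on 1370669_a_at. Limma's intervals ran from -0.34 to 0.19 and from -0.48 to 0.20. The marker mean was itself higher by 0.18 in learning rats (exact permutation p = 0.0012). Only control replicate 6 reached the learning range. This fit can therefore hardly separate the group from the marker mean, and no conclusion on Pde10a is drawn from it. In bulk tissue a different share of granule cells and a different amount of RNA per cell cannot be told apart. The mean of the 7 of 8 CA1 markers tested ran from 6.60 to 7.67 in control and from 7.11 to 7.57 in learning rats. It was higher by 0.35 in learning rats. All of them lay within the control range, but its upper end was control replicate 5 alone. The other control rats reached no higher than 7.14. Its genes were not alike: Wfs1 differed by 0.95, Gpr161 by 0.53, Mpped1 by 0.37, Fibcd1 by 0.31 and Ccn3 by 0.30. Itpka and Lmo3, the brightest of the list, differed by -0.05 and 0.0025. With the CA1 mean as covariate Pde10a 1368438_at differed by 0.44. With the meningeal marker mean as covariate, which ran from 4.92 to 7.43 in control and 4.74 to 7.60 in learning rats, it differed by 0.32. Choroid plexus markers differed most of the lists: the mean of the 2 of 5 tested, Ttr and Enpp2, was 6.67 to 7.98 in control and 6.34 to 6.61 in learning rats, with no overlap. Ttr, the transthyretin gene, differed by -1.78 and Enpp2 by -0.04, while Kl, Folr1 and Aqp1 were below the filter. The mean of 7 of 8 microglial markers was 7.37 to 7.90 in control and 7.39 to 7.62 in learning rats, a difference of -0.18, with Cx3cr1 below the filter. The part of choroid plexus and microglial markers in the Pde10a result was not tested. Of 12 striatal projection neuron markers on the array, Drd1, Drd2, Adora2a, Tac1 and Isl1 were below the filter, and the mean of the 7 tested ran from 6.82 to 7.15 in control and 6.91 to 7.08 in learning rats. As a sign of RNA integrity, the gap between the 3′ and 5′ probe sets for beta-actin was 1.21 to 1.47 in control and 1.27 to 1.58 in learning rats, and its part in the result was not tested.

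**Figure D2:**
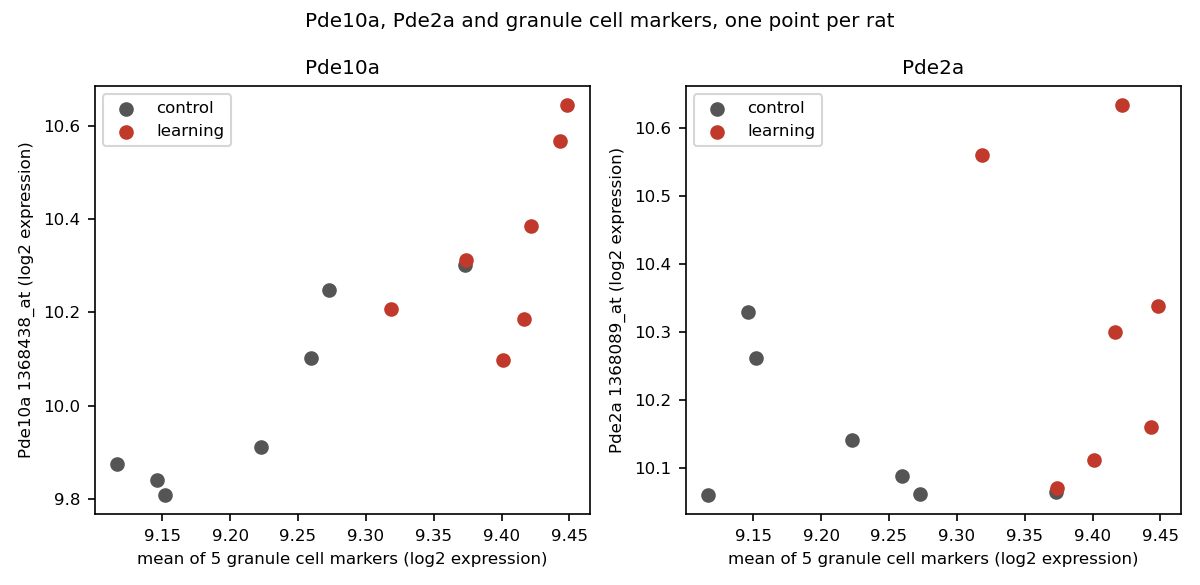
Log2 expression of Pde10a 1368438_at (left) and Pde2a 1368089_at (right) against the mean log2 expression of 5 granule cell markers, 1 point per rat. The Pde10a points follow the marker mean within both groups (r = 0.919 in control and 0.623 in learning rats), while the Pde2a points slope downwards within both (r = -0.540 and -0.214). Over all 14 rats the Pde2a relation did not pass (r = -0.302, permutation p = 0.293).

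Pde2a, the cGMP-stimulated dual phosphodiesterase, had values of 10.06, 10.09 and 10.33 (lowest, median, highest) in control rats and 10.07, 10.30 and 10.63 in learning rats. Learning replicates 5 and 6, at 10.56 and 10.63, were the highest of all rats, and 6 of 7 learning rats lay above the control median, with the groups overlapping over most of the control range. The difference was 0.17 ± 0.09 log2 units (SE), interval -0.02 to 0.36, with an adjusted p of 0.445 in limma. It was 0.11 without learning replicate 6. The relation of Pde2a to the granule marker mean did not pass (r = -0.302, permutation p = 0.293; rho = -0.156, permutation p = 0.592; adjusted 0.653 and 0.666), and with that mean as covariate its difference was 0.30 ± 0.15 (SE).

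The calmodulin-stimulated enzymes Pde1a and Pde1b differed in opposite directions, and neither passed. Pde1a stood between 5.13 and 5.62 in control rats with a median of 5.18, and between 5.09 and 5.28 in learning rats with a median of 5.13. Control replicates 4 and 7, at 5.62 and 5.58, lay apart from the other control rats, which reached no higher than 5.19. The difference was -0.14 ± 0.08 log2 units (SE; adjusted p = 0.481 in limma), and -0.09 without control replicate 4. Pde1b ran from 7.32 over a median of 7.58 to 7.80 in control rats and from 7.54 over 7.65 to 7.85 in learning rats, a difference of 0.09 ± 0.07 (SE; adjusted p = 0.575 in limma). The lowest Pde1b value, 7.32, was that of control replicate 3, and without it the difference was 0.05.

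Pde4b, a cAMP-specific enzyme of the rolipram-sensitive family, was read by a pair of probe sets. On 1374157_at control rats ran from 7.04 to 7.33 with a median of 7.24 and learning rats from 7.00 to 7.51 with a median of 7.33, so the lowest and the highest rat were both learning rats. The difference was 0.07 ± 0.07 log2 units (SE; adjusted p = 0.688 in limma). With single rats left out it ran from 0.033 without learning replicate 2 to 0.12 without learning replicate 5. On 1369044_a_at the difference was 0.10 ± 0.16 (SE; adjusted p = 0.804 in limma), with 0.0019 without learning replicate 1 and 0.19 without control replicate 6. There, learning replicates 1 and 2 and control replicate 6, at 6.01, 5.90 and 5.83, stood above the other 11 rats, none of which exceeded 5.45. Its residual SD of 0.33 was exceeded by 5.94% of tested probe sets. The Pde4b probe sets correlated across rats at r = 0.544 (permutation p = 0.0432, adjusted 0.0863) and rho = 0.521 (permutation p = 0.0585, adjusted 0.117), and r was 0.636 without control replicate 2 and learning replicate 5. With the granule marker mean as covariate both Pde4b differences were -0.12.

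**Figure D3:**
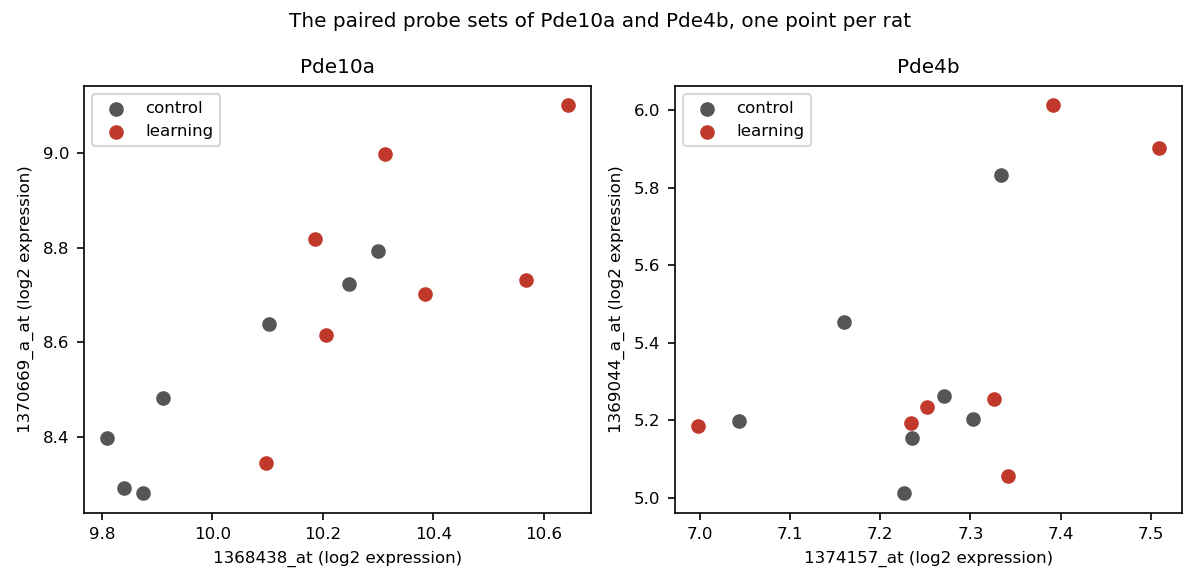
The 2 probe sets of Pde10a (left) and of Pde4b (right) against each other, in log2 expression, 1 point per rat. The Pde10a probe sets order the rats alike (r = 0.783 after removal of the group means), and on Pde4b 1369044_a_at 3 rats stand at 5.83 to 6.01 above all others.

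The cyclases that could be tested hardly differed between the groups. Adcy2, which responds to G protein beta-gamma subunits, ran from 9.64 to 9.85 in control rats (median 9.79) and, in learning rats, from 9.59 to 9.94 (median 9.73). Both the lowest and the highest rat were learning rats, and the difference was -0.04 ± 0.06 log2 units (SE), with an interval from -0.16 to 0.09 and an adjusted p of 0.805 in limma. It ran from -0.069 without learning replicate 1 to -0.011 without learning replicate 6. Adcy3, the cyclase of olfactory neurons and of neuronal primary cilia, ran from 6.67 to 6.79 in control rats (median 6.72) and, in learning rats, from 6.55 to 6.79 (median 6.70). Its difference of -0.02 ± 0.05 (SE; adjusted p = 0.848 in limma) had an interval from -0.12 to 0.07, and without learning replicate 7, the lowest rat, it was 0.0037. Adcy3 was among the steadiest transcripts: 96.2% of tested probe sets had a larger residual SD between rats than its 0.06. For Adcy2, with an SD of 0.10, the share was 85.0%.

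Adcy5, Adcy8 and Pde4d had no probe set with a mean of at least 4, the level required for the main test. Their 5 probe sets are given as values, and with no filter limma's adjusted p for them ran from 0.668 to 0.949. Adcy5, a cyclase inhibited by calcium and best known from the striatum, missed that level narrowly on 1368298_at with a mean of 3.99. Control rats ran from 3.07 over a median of 3.95 to 4.30 and learning rats from 3.39 over 4.23 to 4.94. The 3 highest of the 14 rats were learning replicates 4, 6 and 7, at 4.76, 4.94 and 4.54, while learning replicates 1, 2 and 3 lay low, between 3.39 and 3.64. The mean difference of 0.31 was 0.18 without learning replicate 6 and 0.44 without learning replicate 3. When no filter was applied, limma gave it an interval from -0.28 to 0.91 and an adjusted p of 0.733. The other Adcy5 probe set, 1390038_at, lay between 2.51 and 2.58 on all arrays.

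Adcy8, the calcium- and calmodulin-stimulated cyclase, was at 3.12 to 3.32 in 6 control rats and 3.24 to 3.32 in 6 learning rats. Control replicate 7 stood apart at 4.31 and learning replicate 3 at 3.82. The mean difference was -0.04, and 0.11 without control replicate 7. Pde4d, the other cAMP-specific phosphodiesterase here, lay between 3.76 and 3.86 on 1370569_at in every rat other than control replicate 1, which was at 3.02. The difference of 0.09 rested on that rat and was -0.02 without it. Its second probe set, 1368750_a_at, lay between 2.71 and 2.74. GCRMA compresses differences near background, so the values of these probe sets set no bound on the size of a difference.

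Over all 9 member probe sets tested, limma called 0 at an adjusted p below 0.05, where 0% of all 9387 tested probe sets were called. At an unadjusted p below 0.05 there were 2, both of Pde10a and both with the higher mean in learning rats, against 13.1% of all tested probe sets in either direction and 6.43% higher in learning rats. By the brightest probe set of each gene this was 1 of 7 genes, beside 12.6% of all genes. The count was 1 without control replicate 1, 2 or 4 or learning replicate 2, 3, 6 or 7, was 3 without learning replicate 4, and was 0 with the granule marker mean as covariate. For 0 of the 9 did the groups not overlap, against 0.405% of all tested probe sets. By brightest probe set, 4 of the 7 tested genes had a positive difference and 3 a negative one, with a median of 0.07 beside 0.0018 over all 6697 tested genes, of which 50.6% had a positive difference. Both tested cyclases were on the negative side, and of 5 tested phosphodiesterases 4 were on the positive side, Pde1a being the exception. With the granule marker mean as covariate, Pde4b and Pde10a were on the negative side too, but that mean itself differed between the groups.

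**Figure D4:**
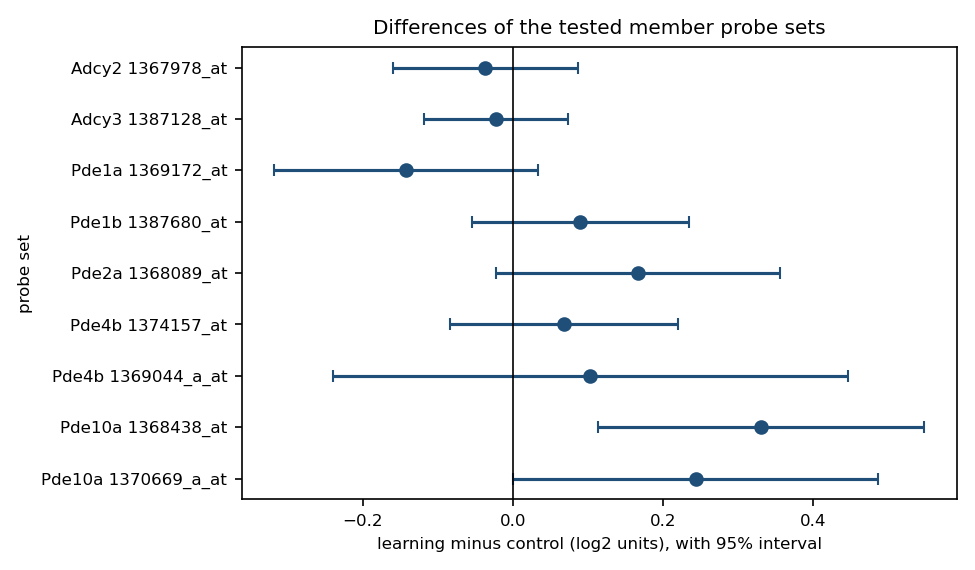
Learning minus control in log2 units for the 9 tested probe sets (points), with 95% intervals from limma (bars). The intervals of both Pde10a probe sets lie above 0 before adjustment over all probe sets, that of 1370669_a_at only just with its lower end at 0.0005, and all others include 0.

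Correlations between the genes across rats took both signs. Of 45 pairs of the 10 genes, each by its brightest probe set with the group means removed, 23 had a positive and 22 a negative Pearson's r, with a median of 0.03. After adjustment over the 45 pairs 0 passed by Pearson's r or by Spearman's rho. Pairs with Adcy5, Adcy8 or Pde4d rest on probe sets below the filter, and for Adcy8 and Pde4d single rats stood apart. With so few rats and adjustment over 45 pairs, the lack of a passing pair does not show that the genes vary apart. The pair of smallest p was Pde4b and Pde10a, with r = 0.536 (permutation p = 0.0455, adjusted 0.794) and rho = 0.446 (permutation p = 0.112, adjusted 0.826). Its r was 0.565 in control and 0.542 in learning rats, and 0.473 without control replicate 2 and learning replicate 5. Pde2a and Pde4b had the most negative value, r = -0.482 (permutation p = 0.0809, adjusted 0.794; rho = -0.336, permutation p = 0.24, adjusted 0.826), and -0.212 without learning replicates 5 and 6.

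Among all 6696 other tested genes, the one whose deviations across the 14 rats most resembled a member's was sought for each member, and the 3 closest matches are given as a description, since each is the maximum of many. Pde4b and Vldlr, a reelin receptor gene, had r = 0.943 and rho = 0.947, and r was 0.834 without the 2 rats farthest from the median. Pde4d 1370569_at and the transporter gene Slco2b1 had r = 0.991 and rho = 0.855, and r was 0.940 without the 2 rats farthest from the median. The group means were not recomputed for this last value. Control replicate 1, left out there, had lowered the Pde4d control mean, so 0.940 can reflect an offset between the groups. Within control rats r was 0.995 and within learning rats 0.749. This probe set is below the filter, and every rat other than control replicate 1 lay between 3.76 and 3.86. Adcy8, also below the filter, and Synpo, which encodes the spine protein synaptopodin, had r = 0.945 but 0.462 without control replicate 7 and learning replicate 3.

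The rest of the pathway was read from 9 lists, by the brightest probe set of each gene. Of 100 listed genes on the array 49 were tested, 19 with a positive and 30 with a negative difference, and limma called 0 at an adjusted p below 0.05 (0% of all 6697 genes). At an unadjusted p below 0.05 there were 7 of 49, beside 12.6% of all genes. Their median difference was -0.01. Adcy4, Adcy6 and Adcy10 were below the filter, so no other cyclase was tested. Of 12 other phosphodiesterase genes on the array 4 were tested, 2 on each side, and the 3 of smallest p were Pde6g at 0.04, Pde9a, a cGMP-specific enzyme, at 0.03 and Pde7a, a cAMP-specific one, at -0.0096; the signs of Pde9a and Pde7a turned when single rats were left out.

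Of 8 tested cAMP effectors 3 were on the positive and 5 on the negative side, with a median of -0.02. Rapgef4, which encodes Epac2, differed by -0.63 ± 0.12 (SE; adjusted p = 0.153 in limma), Prkacb, a catalytic subunit of protein kinase A, by 0.14 (its other probe set, -0.02), and Rapgef2 by 0.08. The 13 kinase anchors and inhibitors split 3 and 10 with a median of -0.06, and Akap7 differed by 0.25, Akap1 by -0.15 and Akap8 by -0.10. Among 5 G protein genes, 1 positive and 4 negative, Gnao1 differed by -0.48 ± 0.16 (SE; adjusted p = 0.251 in limma), Gnas, the stimulatory subunit that activates cyclases, by -0.13 (its other probe set, -0.20), and Gnai1 by 0.04.

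Receptors that act on cyclases through stimulatory or inhibitory G proteins numbered 9 tested of 30 on the array, 4 positive and 5 negative, with a median of -0.0054. The cannabinoid receptor gene Cnr1 differed by 0.17 (its other probe set, -0.01) and the glutamate receptor genes Grm7 and Grm3 by 0.43 and -0.14. Grm7 was 0.25 without control replicate 5, 0.83 with the CA1 covariate and -0.037 with the granule covariate, and Grm3 ran from -0.25 without learning replicate 1 to -0.067 without learning replicate 7. Calm2, 1 of the genes for calmodulin, differed by -0.03, and Gucy1b1, a subunit of the soluble guanylate cyclase, by -0.18 with 0.04 on its other probe set. Among 8 CREB family and coactivator genes, 6 positive and 2 negative, Crem differed by 0.22 ± 0.07 (SE; adjusted p = 0.251 in limma), Atf2 by 0.44 and Atf1 by -0.14.

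**Figure D5:**
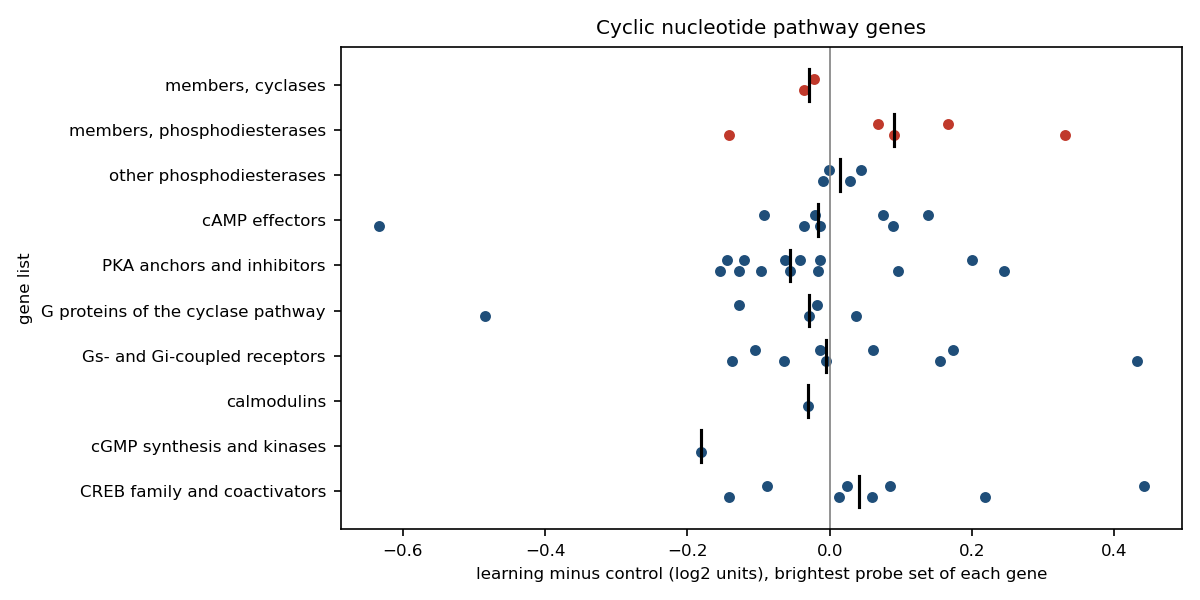
Learning minus control in log2 units for the brightest tested probe set of each gene (points), by list, with the list's median as a black bar; the member genes are red. The phosphodiesterase members have a median of 0.09 and the other lists medians between -0.18 and 0.04, and Rapgef4 at -0.63 and Atf2 at 0.44 are the extremes.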

How the data were processed

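The 14 arrays were grouped by their titles, which call them biological replicates and give no batch or scan date. The authors deposited 1 log2 value for each probe set and array; GCRMA is the tool named in the submitters' processing notes. No source used here gives its version or settings. Gene names came from the platform annotation, and the gene IDs of all 14 member probe sets were found in the table of assembly GRCr8.

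After 57 controls were left out, the 9387 probe sets whose 14-array mean reached 4 were tested with limma 3.58.1 in R 4.3.3 (lmFit and eBayes, no covariate), with Benjamini-Hochberg adjustment over all of them and a threshold of 0.05. The code was tested on simulated data. The number of arrays limits the precision. Correlations used deviations from the group mean with 100000 two-sided permutations. Where rats were left out of a correlation, the deviations were not recomputed.

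The members and lists were chosen with earlier results of these data known. All members were described; elsewhere the 3 genes of smallest p per list were named, with the 3 members best matched by another gene. Alternatives were other filters, normalizations and priors, array weights, a replicate block, a floor at 3, marker covariates and each array left out. The granule marker covariate and correlations were added after seeing the data, as were single markers named in the text.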

Additional observations from a re-analysis of the deposited data

Results flagged for a closer look

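A rat's value lay far from the rest of its group in 5 of 28 checks of 14 probe sets in each group. The measure was the gap to the nearest rat over the group's range, against Dixon's critical value. For normally distributed values chance gives about 1 in 20, but values near background need not be normal. The share over all probe sets is not given here, so the count does not set these genes apart. Pde4d 1370569_at in control replicate 1 (3.02, others at least 3.78) had a ratio of 0.913. Adcy8 in learning replicate 3 (3.82, others at most 3.32) had 0.865 and in control replicate 7 (4.31, others at most 3.32) 0.832. All 3 are on probe sets below the filter. Adcy3 in learning replicate 7 (6.55, others at least 6.69) had 0.589, and Pde1a in learning replicate 1 (5.28, others at most 5.17) had 0.572.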

How the results depend on the processing

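No member probe set and no other listed pathway gene passed the adjusted threshold under any of the 25 alternatives fitted. Over the table the count called was 0 to 1 with single arrays left out, being 1 without control replicate 6, learning replicate 1 or learning replicate 4. The count of member probe sets at an unadjusted p below 0.05, 2 in the main fit, became 1 with no filter, the replicate block or the meningeal covariate. It was 0 with the granule covariate, where standard errors rose. That covariate itself differed between the groups, so its fit can hardly separate the group from the marker mean. With single arrays left out it was 1 to 3, and the probe sets counted were not always those of Pde10a. The replicate block changed no call at the adjusted threshold. Deviations of same-numbered arrays correlated between -0.278 and 0.264, and 4 of 7 numbers (2, 3, 4 and 7) matched their own number best, a hint from the data and not the design; the labels do not say that a number marks a shared batch or day, so the numbers were not taken to pair the rats. With single arrays left out Pde10a 1368438_at stayed between 0.28 and 0.38. Signs turned with the granule covariate for Pde10a (-0.075 and -0.14), Pde4b (-0.12 on both probe sets), Akap8 (0.0083), Calm2 (0.0083), Grm7 (-0.037) and Atf2 (-0.080), and with the CA1 covariate for Gnai1 (-0.020). With single arrays left out Adcy3 ran from -0.036 to 0.0037, Pde9a from -0.023 to 0.093, Pde7a from -0.029 to 0.0062 and Gnai1 from -0.0081 to 0.10. The cause was not tested. For the 5 member probe sets below the filter, only single arrays left out, median centring, the floor and no filter were run. Low signal limits what can be said of them.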
